A study of Trametes coccinea with 9 samples.

Results

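The 63 genes of Pycnoporus coccineus described here had more transcript on pine wood than on maltose and still more on aspen wood, and they were chosen by these measured values. For each of the 11202 genes with a deposited normalized count, out of 12690 counted, the mean over the 3 libraries of a culture condition plus 10 was taken, and a gene was kept when pine over maltose was at least 4 and aspen over pine at least 2. Aspen over maltose was therefore at least 8 in each of them. Both thresholds were met by 81 genes, and 18 of these were on a list of 20 genes set aside when the group was defined, 16 of the 18 being in the study's CAZyme table, which leaves the 63 described here. A normalized count is the number of reads mapped to a gene multiplied by 1 constant per library. It is not divided by gene length, so its level is compared here between libraries and not between genes unless a value per kilobase is named. All 3 comparisons between conditions entered the choice, so the differences between maltose, pine and aspen given below for the 63 genes are a description without a test.

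The study grew strain CIRM-BRFM 310, a single monokaryotic strain of this white-rot fungus, named Trametes coccinea in the sample labels, in shaken liquid medium at 30 °C for 3 days. The medium held maltose at 20 g/l, or maltose at 2.5 g/l with 15 g/l of ground and sifted pine, or the smaller amount of maltose with 15 g/l of Wiley-milled aspen, and yeast extract was present in every flask. The label of the aspen cultures breaks off in the maltose concentration, and the value of 2.5 g/l for them comes from the study's methods. Poly A RNA of the mycelium from 3 independent cultures per condition was sequenced. The wood cultures differed from the maltose cultures in both wood and maltose, and pine (with bark) and aspen were milled differently, so these factors cannot be told apart in the comparisons. In bulk RNA, fewer cells expressing a gene and less RNA per cell cannot be told apart either.

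White-rot fungi grow on wood by secreting glycoside hydrolases (GH), carbohydrate esterases (CE) and oxidative enzymes of the auxiliary activity (AA) families, which act together on cellulose, hemicelluloses and lignin. Many of these proteins carry a family 1 carbohydrate-binding module (CBM1), a small domain that holds the enzyme to crystalline cellulose. The hemicelluloses of aspen and pine differ. Xylan with glucuronic acid and acetyl side groups predominates in aspen, and pine holds more of the mannan type.

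The libraries held 28399534 to 38654866 counts. Together the 63 genes took 0.0272%, 0.029% and 0.0459% of the counts of the 3 maltose libraries, 0.362%, 0.474% and 0.41% on pine, and 1.49%, 1.73% and 1.66% on aspen. In every aspen library the share was above that of every pine library. The 95% Wilson interval was widest, relative to its value, in maltose 1 (0.0267% to 0.0278%), and it covers counting error only. It takes both reads of a pair as separate counts, so it is too narrow even for that error. Only 10 of the 63 genes were in the study's table of carbohydrate-active enzymes (CAZymes) and 1 in its table of cytochromes P450. Another 29 were listed as proteins of unknown function, 8 of them with a predicted signal peptide for secretion and 21 without, and 23 were in none of these annotation tables and are named here by protein identifier alone.

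**Figure D1:**
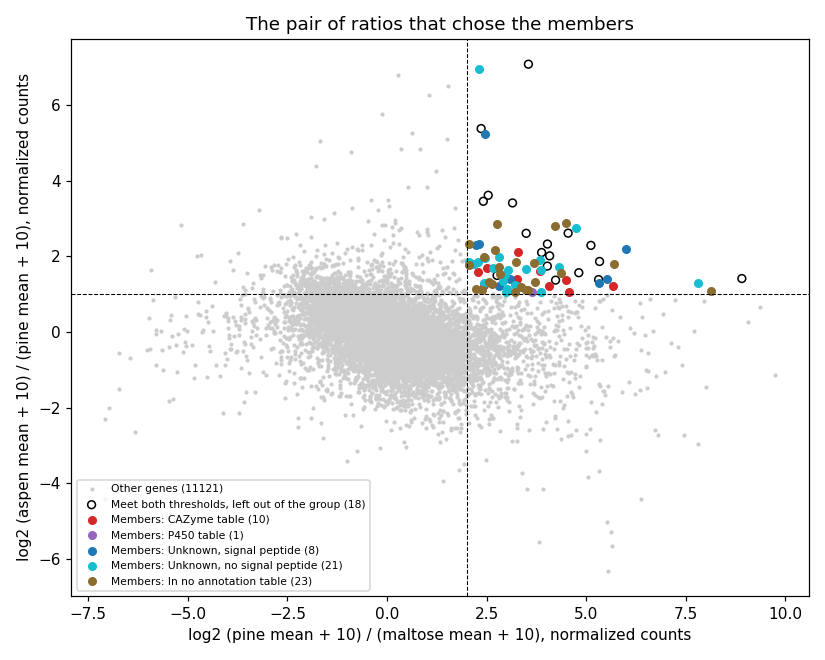
Each point is 1 of the genes with a normalized count, with the log2 ratio of pine over maltose on the horizontal axis and that of aspen over pine on the vertical axis, both from means of 3 libraries plus 10. Dashed lines mark the thresholds of 4 and 2. The 63 members are coloured by annotation class and the 18 genes set aside are open circles, and 2 members, 1448556 and 1419800, stand above an aspen over pine ratio of 10.

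The ratio of aspen over pine ran from 2.06 to 123 over the members, with a median of 2.99. It was under 2.5 in 22 genes, from 2.5 to 3 in 10, from 3 to 4 in 19, from 4 to 10 in 10, and above 10 in 2. Most of the group therefore sat within a few fold of the threshold. Aspen over maltose had a median of 24.9 and was 100 or more in 11 genes. On maltose the mean normalized count was under 50 in 23 members and 200 or more in 19, so the group held genes that were nearly silent on maltose as well as genes with a clear level there.

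**Figure D2:**
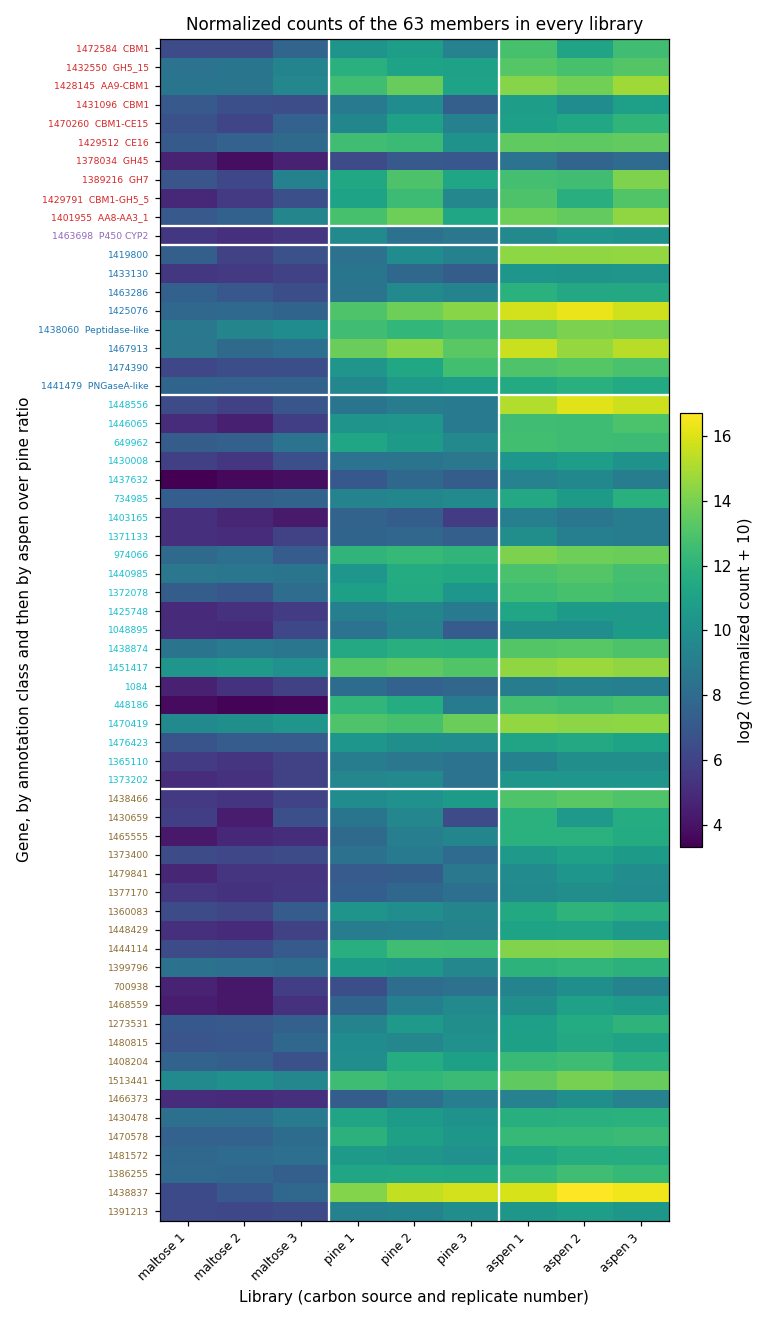
Colour gives log2 of the normalized count plus 10 for the 63 members (lines) in the 9 libraries (columns), grouped by annotation class and ordered within a class by the ratio of aspen over pine. The 3 aspen columns are the brightest in most lines, and single pine libraries depart from the other pine libraries in lines such as 1430659, 448186 and several CAZymes.

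The cellulose-active families contributed 3 members. Gene 1389216 belongs to GH7, the family of the main fungal cellobiohydrolases and of endoglucanases. In 1389216 the normalized counts were 107, 64.7 and 586 on maltose, 2528, 8099 and 2439 on pine and 6573, 6187 and 17875 on aspen. The highest pine library lay above both lower aspen libraries, so the groups overlapped, and the ratio of 2.34 rested on aspen 3 and on the lower pine libraries. Gene 1429791, a GH5_5 endoglucanase with a CBM1, is of the kind that cuts within the cellulose chain. The libraries of 1429791 held 17.8, 37.5 and 87.1 normalized counts on maltose, 2142, 5827 and 725 on pine and 8048, 3526 and 8488 on aspen. Here again pine 2 was above the lowest aspen library, and pine 2 was 7.94 times pine 3. Gene 1378034, of the small endoglucanase family GH45, had the fewest reads of the CAZymes in the group. Gene 1378034 was at 15.6, 4.17 and 13.9 normalized counts on maltose, 74.1, 124 and 114 on pine and 336, 194 and 248 on aspen. All aspen libraries were above all pine libraries, on counts that were small throughout.

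The oxidative side of cellulose attack was represented by a lytic polysaccharide monooxygenase (LPMO) and by cellobiose dehydrogenase. Gene 1428145 encodes an AA9 LPMO with a CBM1, a copper enzyme that breaks cellulose chains by oxidation. For 1428145, maltose gave 356, 363 and 711 normalized counts, pine 6127, 12453 and 2171 and aspen 19622, 15108 and 28771. The lowest aspen library was 1.21 times the highest pine library. Its mean on aspen was 21167 ± 6962 (SD, n = 3), against 6917 ± 5186 on pine. Gene 1401955 has the AA8-AA3_1 architecture of cellobiose dehydrogenase, a secreted flavocytochrome that oxidizes cellobiose and can pass electrons to LPMOs. Normalized counts of 1401955 were 121, 170.0 and 662 on maltose, 7139, 13921 and 2358 on pine and 13603, 11470 and 23250 on aspen. Pine 2 lay above both aspen 1 and aspen 2, and this was the member closest to the aspen over pine threshold, with a ratio of 2.06.

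Esterases that act on hemicellulose made up a further pair. Gene 1470260 encodes a CE15 glucuronoyl esterase with a CBM1, an enzyme that cleaves the ester linkage between glucuronoxylan and lignin. On maltose 1470260 had 91.2, 58.4 and 172 normalized counts, with 686, 2048 and 585 on pine and 1883, 2558 and 4309 on aspen. Pine 2 was slightly above aspen 1, and the remaining pine libraries were below all aspen libraries. Gene 1429512 belongs to CE16, a family of acetylesterases that take acetyl groups from hemicellulose fragments. The values of 1429512 were 129, 178 and 242 normalized counts for maltose, 6198, 5605 and 1145 for pine and 11252, 10542 and 11516 for aspen. The aspen libraries differed little from each other and stood above every pine library, and pine 3 was far below pine 1 and pine 2.

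Among the remaining genes of the CAZyme table, 1472584 and 1431096 were listed for a CBM1 alone, with no catalytic family. In 1472584 the normalized counts were 75.6, 73.0 and 194 on maltose, 1211, 1782 and 596 on pine and 7311, 2248 and 6184 on aspen. The libraries of 1431096 held 122, 85.5 and 81.2 normalized counts on maltose, 469, 892 and 159 on pine and 1834, 909 and 1862 on aspen. Aspen 2 was the lowest aspen library for both, and for 1431096 it was level with pine 2. Gene 1432550 is a GH5_15 enzyme, a family known for endo-β-1,6-glucanases, whose substrate is found in fungal cell walls. Gene 1432550 was at 337, 355 and 647 normalized counts on maltose, 3555, 2150 and 1997 on pine and 9151, 7119 and 8872 on aspen. It was the CAZyme of the group with the clearest separation, the lowest aspen library being 2.00 times the highest pine library. The only P450, gene 1463698, was listed under CYP2, and P450s are monooxygenases that fungi use on many small aromatic and lipid molecules. For 1463698, maltose gave 35.6, 25.0 and 33.7 normalized counts, pine 819, 316 and 389 and aspen 811, 1268 and 1145. Pine 1 was slightly above the lowest aspen library, so the groups overlapped.

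**Figure D3:**
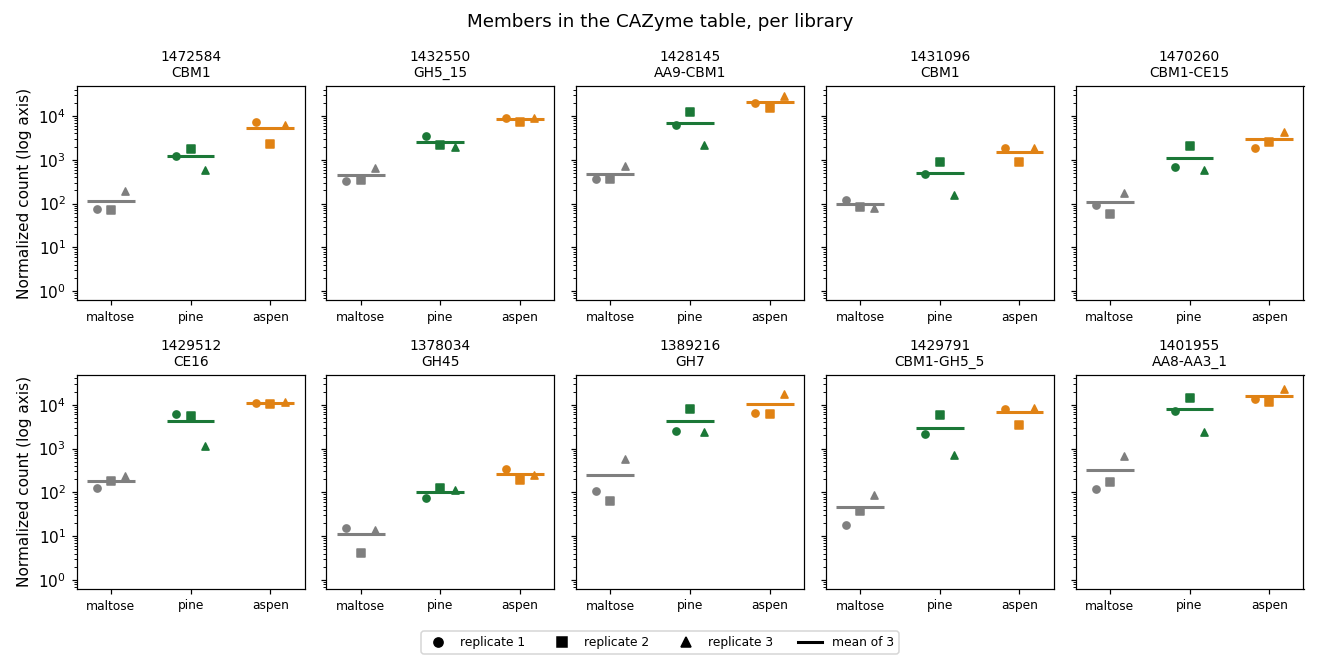
The normalized count (log axis) of the 10 members in the CAZyme table is shown for each library, with the replicate number as the symbol and a bar at the mean of 3. Pine 3 is the lowest pine library in 9 of the 10 panels, and pine points reach into the aspen range for 1389216, 1429791, 1470260 and 1401955.

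The 8 members of unknown function with a predicted signal peptide included the 3 members with the highest mean on aspen per kilobase of annotated gene span, 1467913, 1425076 and 1419800. Gene 1425076 stood far apart on the 3 carbon sources. Normalized counts of 1425076 were 217, 225 and 190.1 on maltose, 8410, 13866 and 20276 on pine and 56405, 81102 and 55580 on aspen. No groups overlapped, and aspen over maltose was 292. Gene 1419800 was a different case, with a small step from maltose to pine and a large one from pine to aspen. On maltose 1419800 had 159, 50.1 and 89.1 normalized counts, with 324, 891 and 571 on pine and 22145, 22879 and 23901 on aspen. The lowest aspen library was 24.6 times the highest pine library, and the mean on aspen was 22975 ± 882 (SD, n = 3). Gene 1467913 was already high on pine. The values of 1467913 were 390.3, 236 and 285 normalized counts for maltose, 12990, 20482 and 9895 for pine and 50119, 24427 and 39413 for aspen. Its lowest aspen library was 1.19 times its highest pine library. Per kilobase its mean level on aspen was 124545 normalized counts, which was rank 21 of the 11195 genes with a known span, against rank 78 on pine.

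Gene 1474390, also with a signal peptide, differed from the CAZymes in its pine libraries. In 1474390 the normalized counts were 62.3, 81.4 and 83.2 on maltose, 1271, 2644 and 6379 on pine and 8469, 9272 and 7362 on aspen. Pine 3 was the highest pine library and came close to the lowest aspen library. The remaining 4 secreted unknowns had smaller ratios of aspen over maltose, from 16.2 to 24.6. The libraries of 1433130 held 35.6, 37.5 and 51.5 normalized counts on maltose, 363, 224 and 143 on pine and 1301, 1231 and 1248 on aspen. Gene 1463286 was at 168, 114 and 82.2 normalized counts on maltose, 343, 850.3 and 631 on pine and 3786, 2699 and 2689 on aspen. In both of these genes every aspen library was more than 3 times every pine library. The domain notes of the study call 1438060 peptidase-like and 1441479 PNGaseA-like, the latter being a type of enzyme that releases N-linked glycans from proteins. For 1438060, maltose gave 403, 666 and 891 normalized counts, pine 6206, 4577 and 6179 and aspen 12256, 17451 and 15141. Normalized counts of 1441479 were 189, 172 and 185 on maltose, 763, 1478 and 1741 on pine and 2871, 3546 and 2902 on aspen. Neither gene had overlapping groups, and both had a clear level on maltose.

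The 21 members of unknown function without a predicted signal peptide included the gene with the largest difference between the woods. On maltose 1448556 had 75.6, 52.1 and 109 normalized counts, with 362, 492 and 427 on pine and 37395, 70132 and 53810 on aspen. In 1448556 the lowest aspen library was 74.5 times the highest pine library, the ratio of the means was 123, and the maltose and pine levels were both low, with pine over maltose at 4.92, near the threshold of 4. Its mean on aspen was 53779 ± 16368 (SD, n = 3), and per kilobase it ranked 112 on aspen and 6851 on pine. Gene 1446065 had the next largest ratio of aspen over pine in this class, 6.78. The values of 1446065 were 22.2, 12.5 and 45.5 normalized counts for maltose, 1189, 1315 and 435 for pine and 6283, 5993 and 7831 for aspen. In 974066 the normalized counts were 234, 284 and 139 on maltose, 4343, 4983 and 4306 on pine and 17407, 13874 and 13246 on aspen. For both genes all aspen libraries were above all pine libraries by more than 2.6 times. Genes 1451417 and 1470419 were among the 10 members with the most reads on aspen. The libraries of 1451417 held 1237, 1451 and 1071 normalized counts on maltose, 9136, 10630 and 8650 on pine and 22761, 26712 and 23296 on aspen. Gene 1470419 was at 805, 1015 and 1266 normalized counts on maltose, 8348, 7196 and 13310 on pine and 23793, 21495 and 22555 on aspen. Their ratios of aspen over pine were 2.56 and 2.35, from a clear level on maltose. In all 21 genes of the class every aspen library was above every pine library, as in 24.4% of all 11101 tested genes with a normalized count, and the median ratio of aspen over pine was 3.15. Since the rule used this difference, nothing is read from that count.

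Among the 23 members in none of the annotation tables, 1438837 had the most reads of the whole group on aspen, without regard to gene length. For 1438837, maltose gave 71.2, 116 and 219 normalized counts, pine 19052, 45104 and 57311 and aspen 60517, 107252 and 88838. Pine 2 and pine 3 came near aspen 1, and the lowest aspen library was only 1.06 times the highest pine library, whereas aspen over maltose was 589. Gene 1444114 had its groups well apart. Normalized counts of 1444114 were 77.8, 66.8 and 129.7 on maltose, 3479, 6183 and 6000 on pine and 18676, 19086 and 16536 on aspen. Pine over maltose was 51.6 in this gene and aspen over pine 3.46. Gene 1438466 had the third highest ratio of aspen over pine of all members, 7.41. On maltose 1438466 had 38.9, 32.3 and 57.4 normalized counts, with 887, 1099 and 1559 on pine and 8304, 9889 and 8278 on aspen. The pine libraries were all within 2 times of each other, and the aspen libraries were at least 5.28 times any of them. Gene 1465555 had a ratio of 7.02. The values of 1465555 were 8.90, 17.7 and 23.8 normalized counts for maltose, 241, 519 and 703 for pine and 3736, 3715 and 2985 for aspen. Gene 1373400 was just inside the threshold for pine over maltose. In 1373400 the normalized counts were 75.6, 61.5 and 75.2 on maltose, 305, 425 and 244 on pine and 1488, 1987 and 1545 on aspen. Its aspen libraries were more than 3 times any pine library. Gene 1430659, with a ratio of 7.24, had scattered pine libraries, pine 2 being 8.69 times pine 3. The libraries of 1430659 held 46.7, 10.4 and 85.1 normalized counts on maltose, 359, 711 and 73.0 on pine and 3783, 1504 and 3171 on aspen. Pine 3 lay below maltose 3, and this was the 1 member whose pine and maltose libraries overlapped. Over all 11101 tested genes with a normalized count, every pine library was above every maltose library in 3447. Gene 1391213, at the other end, had a ratio of 2.07. Gene 1391213 was at 69.0, 63.6 and 77.2 normalized counts on maltose, 582, 652 and 953 on pine and 1366, 1821 and 1365 on aspen. In all 23 genes every aspen library was above every pine library, as in 24.4% of all 11101 tested genes with a normalized count. The rule used this difference, so the count of 23 is a description only.

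The rule used the replicates of a condition only through their mean. Their spread was still tied to the choice, since 12 members were lost without pine 1 and 12 without pine 3. The spreads are therefore given as a description without a test. The ratio of the highest to the lowest of 3 libraries had a median over the members of 1.79 on maltose, 2.27 on pine and 1.41 on aspen. Over the 75 genes that mirror the group (at least 4 times maltose on aspen and at least 2 times higher on pine than on aspen), the pine median was 2.18, and over the 461 wood-induced genes with less than 2 times between the woods it was 1.72. For the 10 CAZyme members it was 4.41. It was 3.90 for the CAZymes among the 75 genes and 3.025 for those among the 461, beside 1.54 over all genes compared. Pine 2 was the highest pine library in 8 of the 10 CAZyme members and pine 3 the lowest in 9, with pine 2 at least 2 times pine 3 in 8. Members outside the CAZyme table had pine 2 highest in 21 of 53 and pine 3 lowest in 23 of 53. The order was not particular to the members: of the 55 CAZymes among the evenly induced genes, 34 were highest in pine 2 and 45 lowest in pine 3. Of all 11101 tested genes with a normalized count, 3245 were highest in pine 2 and 3907 lowest in pine 3.

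**Figure D4:**
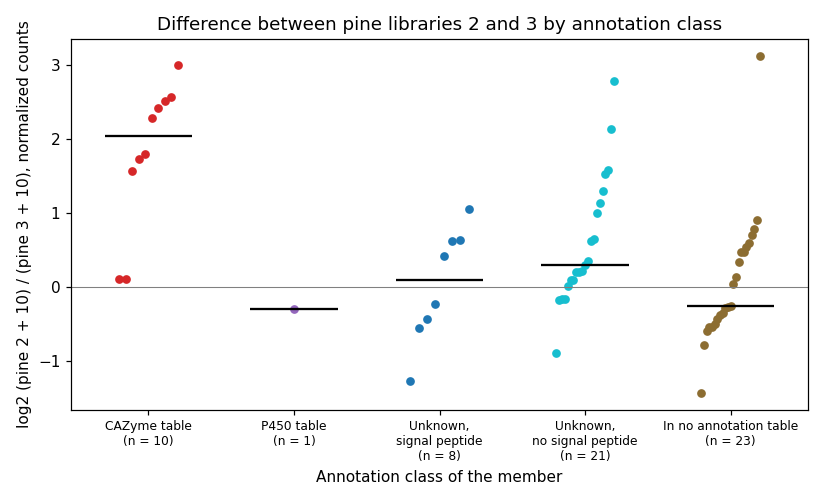
Each point is a member, placed by annotation class, with log2 of pine 2 over pine 3 (each plus 10) on the vertical axis and a black bar at the class median. Of the 10 CAZymes 8 lie above a 2-fold difference, whereas the median of the genes in no annotation table is below 0.

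Other members went the other way. Pine 3 was the highest pine library for 17 of the 63 genes, including 1425076, 1438837, 1474390, 1465555 and 1470419, none of them a CAZyme. Over all genes compared, pine 3 was the highest pine library in 3793 of 11101. On aspen the CAZymes also differed from the other members in their replicates. Aspen 3 was the highest aspen library in 7 of the 10 CAZymes and aspen 2 in none, whereas aspen 2 was the highest in 32 of the 53 other members. Among the 55 CAZymes of the evenly induced genes aspen 3 was likewise the highest in 33 and aspen 2 in 6, and maltose 3 was the highest maltose library in 43. Of all 11101 genes compared, 3393 were highest in aspen 3 and 3275 in aspen 2 among the aspen libraries. On maltose, maltose 3 was the highest library in 42 of the 63 members and in 8 of the 10 CAZymes, with 4822 of 11101 among all genes compared. In 1401955 maltose 3 was at 662 normalized counts against 121 and 170.0, and in 1389216 at 586 against 107 and 64.7. The mean level of both genes on maltose thus rested largely on 1 library.

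Read trimming and library codes, which the study's library table gives, did not fall evenly on the groups. Pine 2, aspen 1 and aspen 3 were trimmed to 78 bases before mapping and the other wood libraries to 70. Between libraries of 78 bases, aspen over pine was at least 2 in 51 members, with a median of 2.62, and between libraries of 70 bases in 60 members, with a median of 3.13. The codes of aspen 1, aspen 2 and maltose 3 begin with PAU and those of the other libraries with PAW. Maltose 3 thus differed from maltose 1 and maltose 2 in its code, and the part of this in its higher values was not tested. Within PAW aspen 3 alone was at least 2 times the pine mean in 60 members, with a median of 2.92. All 63 members were above a ratio of 1 in each of these comparisons, which use the same values as the rule. Of all 11101 genes compared, 50.2% were above 1 within PAW, 50.6% at 70 bases and 53.1% at 78 bases. The shares at least 2 were 5.86% within PAW, 6.87% at 70 bases and 12.8% at 78 bases. With the beginning of the code as a term in the edgeR fit, 43 of the 63 members and 771 genes in all were called higher on aspen than on pine. For the CAZymes the median ratio was 1.99 at 78 bases, where 5 of 10 reached 2, and 2.52 at 70 bases, where 9 did. The only pine library at 78 bases was pine 2, and the part of trimming in this difference was not tested.

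Positions were taken from the annotation of assembly Pycco1, to which all 63 members could be matched, and only gene order and gene spans were used. Only 2 members lie next to each other, the AA9 LPMO gene 1428145 and gene 1048895 of unknown function, whose annotated spans overlap by 203 bases. For 1048895, maltose gave 22.2, 21.9 and 65.3 normalized counts, pine 335, 633 and 136 and aspen 972, 926 and 1575. In every wood library 1048895 stood at 4.95% to 6.28% of the count of 1428145, and at 6.03% to 9.19% on maltose. Another 7 members have 1 of the 18 genes that were set aside within 5 gene models. Gene 448186, of unknown function, overlaps by 68 bases with 1468135, which the study annotates as a putative hydrophobin and which has a predicted signal peptide. Normalized counts of 448186 were 3.34, 1.04 and 1.98 on maltose, 4410, 3172 and 452 on pine and 6623, 5930 and 7198 on aspen. Its count was 27.1% to 32.0% of that of 1468135 over the 6 wood libraries, including pine 3, where both genes were at their lowest among the wood libraries. Gene 734985 overlaps by 354 bases with 1426850, a GH10 xylanase with a CBM1. On maltose 734985 had 151, 153 and 185 normalized counts, with 635, 707 and 795 on pine and 2689, 1568 and 3552 on aspen. In this pair the share was not constant, running from 14.1% to 72.6% over the wood libraries. Gene 1430659, with the scattered pine values given above, begins 247 bases from 1382161, an AA9 LPMO with a CBM1 whose pine libraries were 4483, 9569 and 1672 normalized counts, in the same order. The CE15 gene 1470260 lies 1038 bases from another CE15 gene, 1470261, which was among the genes set aside.

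**Figure D5:**
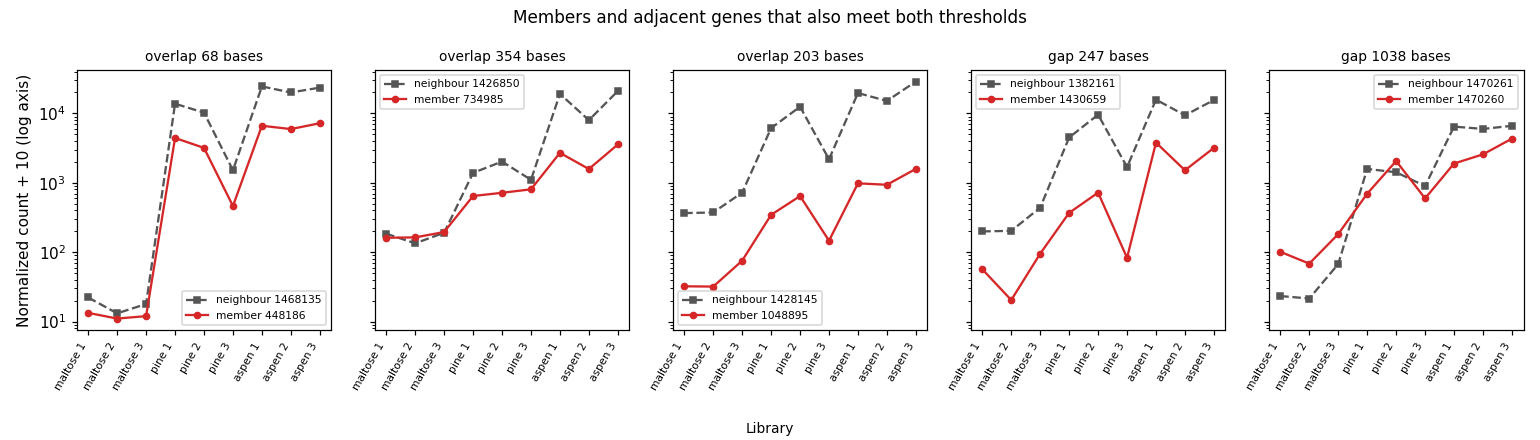
The normalized count plus 10 (log axis) of a member (solid line) and of an adjacent gene that also met both thresholds (dashed line) is shown in each of the 9 libraries for 5 pairs. The lines of 448186 and 1048895 run parallel to those of their neighbours, while those of 734985 and 1470260 do not.

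In all, the span of 17 members overlapped an adjacent gene model, and for 6 of them (448186, 734985, 1048895, 1372078, 1378034 and 1448429) that neighbour had the higher mean on aspen. The strand setting of the counting and its handling of reads in an overlap are not given in the sources used here, so reads of such a pair cannot be assigned with certainty, and the part of shared reads in these 6 values was not tested. Of the 107 tested genes directly beside a member that did not meet both thresholds, 25 passed the test for higher on aspen than on pine and 13 for higher on pine. The test was the quasi-likelihood test of edgeR at an adjusted p of 0.05 (Benjamini-Hochberg, over all 11130 genes tested), 1676 of which (15.1%) were called higher on aspen and 1692 higher on pine.

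Other genes of the same families give the setting of the members. Of 15 cellulose-active genes tested, 4 rose from pine to aspen by that test and 1 fell, with a median log2 difference of 0.83 beside 0.05 over all genes tested, and 5 of the 15 met the thresholds of the group. Over the 10 others 1 was called higher on aspen and 1 on pine, with a median of -0.15. Of 24 xylan-active genes and hemicellulose esterases, 12 were called higher on aspen and 1 higher on pine, with a median of 0.88. Here 8 of the 24 met the thresholds, and over the 16 others the counts were 4 and 1 with a median of 0.3. Of 22 CBM1-bearing genes, 10 were called higher on aspen and 0 on pine, with a median of 1.27, and on the pine side 0 also had an unadjusted p under 0.05 and 0 were called by DESeq2. The CBM1-bearing genes included 5 members and 4 of the genes set aside, and over the 13 others the count was 3 with a median of 0.41. These counts contain genes that were chosen for a higher level on aspen. Of the 15 AA9 genes, 4 were called higher on aspen and 4 higher on pine, with a median of -0.24. The thresholds were met by 3 of the 15, and over the 12 others the counts were 2 and 4 with a median of -0.56. The family of the LPMO 1428145 thus had calls in both directions. Of the 20 AA3 genes, the family of the dehydrogenase domain of 1401955, 4 were called higher on aspen and 3 on pine. Over the 18 that did not meet the thresholds the counts were 3 and 3.

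Of 14 pectin-active genes tested 1 was called higher on aspen and 3 higher on pine. Over the 13 that did not meet the thresholds of the group, the counts were 0 and 3. Of 9 mannan-active genes 2 were called higher on aspen and 0 on pine, where 1 had an unadjusted p under 0.05 and 1 was called by DESeq2. Of 9 β-glucosidases 3 were called higher on aspen and 1 on pine, and over the 8 that did not meet the thresholds 2 and 1. Of 4 glyoxal oxidases of family AA5_1 3 were called higher on aspen and 1 on pine, those 3 being among the genes set aside. The CAZyme table held 4 class II peroxidases, of which 1 was called higher on aspen and 0 on pine, where 1 had an unadjusted p under 0.05 and 0 were called by DESeq2. That list does not cover the whole family, since the study annotates further manganese, lignin and versatile peroxidases elsewhere. Among those left out is 1431101, annotated as a lignin peroxidase, which was among the genes set aside. None of 4 genes of family AA1 in the CAZyme table, a family in which the study lists laccases and a ferroxidase, was called in edgeR. Of the 4, 1 had an unadjusted p under 0.05 and a DESeq2 call, both for higher on pine. Of 30 fungal glucanases 13 were called higher on pine and 3 on aspen, of 23 chitin-active genes 8 and 5, of 10 expansin-related genes 7 and 1, and of 32 glycosyltransferases 8 and 3. Of 61 P450 genes 15 were called in each direction, and over the 60 that did not meet the thresholds 14 higher on aspen and 15 on pine. Of 297 unknown genes with a signal peptide 41 were called higher on aspen and 77 higher on pine, against 330 and 272 of 1810 without one. Over those that did not meet the thresholds the counts were 33 and 77, against 310 and 272. The 8 secreted members thus came from a class whose calls were more often on the pine side.

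The makeup of the group is given beside that of the 75 genes stronger on pine and the 461 even ones, as a description with no test. CAZymes were 15.9% of the members, 17.3% of the genes stronger on pine and 11.9% of the even ones, against 2.41% of all 11101 tested genes with a normalized count. The 18 genes set aside were 88.9% CAZymes, and with them included CAZymes were 32.1% of the 81 genes that met the thresholds. A CBM1 was found in 5 of the 63 members, in none of the 75 and in 9 of the 461. Unknown proteins with a signal peptide made up 12.7%, 18.7% and 7.81% of the 3 groups, and those without 33.3%, 22.7% and 38.8%. Over the 81 genes that met the thresholds these 2 classes were 11.1% and 25.9%. Over all 11101 tested genes with a normalized count they were 2.68% and 16.3%. The median mean level on maltose was 99.4 normalized counts for the members, 152 for the genes stronger on pine and 185 for the even ones. The median annotated gene span was 1659 bases for the members and 1681 over all genes.

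In the fit across all genes, 58 of the 63 members were called higher on aspen than on pine, beside the 15.1% of all genes given above. All 63 were called higher on pine than on maltose, where 29.1% of all genes were, and all 63 higher on aspen than on maltose, where 26.3% were. The deposited values of every aspen library were above those of every pine library in 58 members, beside 24.4% of all genes compared. Because the rule used these contrasts, nothing is read from these counts about the members. The members not called between the woods were 448186, 1389216, 1401955, 1429791 and 1438837, and in these 5 the highest pine library was 3.01 to 9.57 times the lowest. Leaving out 1 library at a time and applying the rule again, 36 of the 63 members met both thresholds in all 9 cases, among them 16 of the 21 unknown genes without a signal peptide and 4 of the 10 CAZymes. Without pine 1, 12 members were lost and without pine 3 also 12, while leaving out maltose 1 or aspen 1 lost none.

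The genes next to each threshold show how close it was drawn. At pine over maltose the first members inside were 1399796 with a ratio of 4.13 and 1373400 with 4.14, and the first genes outside were 1450252 with 3.85 and 1464159 with 3.84. At aspen over pine, 1401955 with 2.06 and 1391213 with 2.07 were inside, and 1434220 with 1.99 and 1458413 with 1.98 outside. The cellobiose dehydrogenase gene 1401955 was thus a member by a margin far smaller than the spread of its pine libraries.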

How the data were processed

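The authors mapped the reads to the strain's own genome with TopHat, allowing unique hits only, and counted them with HTSeq. The deposited raw counts are whole numbers of reads per gene, with both reads of a pair counted. For the deposited normalized counts, a signal here, the authors multiplied each library's raw counts by a constant from DESeq, from 0.99 to 1.59. Near-identical gene copies could not be checked.

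The members, gene lists and annotation classes were chosen with earlier results of these data known. Annotations came from the study's tables. Raw counts were fitted with edgeR 4.0.16 in R 4.3.3 (TMM, quasi-likelihood test, 3 groups, mean raw count of at least 5, 11130 genes), with Benjamini-Hochberg adjustment over all genes, and with DESeq2 1.42.0 as an alternative. The 34 members named by rule were those in the CAZyme or P450 table, the 10 with the largest aspen over pine ratio, the 10 highest on aspen by count and per kb, the 5 with the largest aspen over maltose ratio, those beside a threshold or another member, and the secreted unknowns. Genes named for an overlap were chosen after their values were seen. Alternatives covered the pseudocount, median, scaling, filter, tool, batch terms, replicate block and each library left out. Protein identity, cysteine content and promoter motifs were not analysed here.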

Additional observations from a re-analysis of the deposited data

How the results depend on the processing

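The rule gave 31 genes with aspen over pine of at least 3 in place of 2 and 130 with at least 1.5. With a pseudocount of 1 it gave 78 genes, with 50 47 genes, with medians 68, with TMM scaling 67 and with DESeq2 size factors 63, the last 2 holding all 63 members. Leaving out 1 library gave 60 to 78 genes. Genes higher on aspen than on pine fell to 771 of 1676 with the library code as a term and to 100 when Bonferroni adjustment was also required, and ranged from 1102 to 2196 with 1 library left out, 1102 being without pine 2. Under Bonferroni adjustment 9 members were called between the woods. With Benjamini-Hochberg adjustment alone and 1 library left out, 49 to 59 were called. The Bonferroni counts over all genes were 879 for pine over maltose, with 46 members called, and 787 for aspen over maltose, with 60. By Benjamini-Hochberg adjustment alone and with 1 library left out, these 2 comparisons gave 2795 to 3267 and 2447 to 3035 genes. All 63 members were called in each of those cases. Members whose aspen libraries all lay above the pine libraries ranged from 58 to 62, beside 24.4% of all genes compared when every library was kept. With replicate number as a block (replicate block), 60 members and 1896 genes were called higher on aspen than on pine, 63 members and 3323 genes higher on pine than on maltose, and 63 and 3065 higher on aspen than on maltose. Same-numbered libraries deviated together with correlations from -0.053 to 0.306, not above 0.1 in every pair, so the numbers were not taken to pair the cultures. The comparisons within trim lengths and within 1 library code were chosen after the data were seen. With a pseudocount of 50, 16 members were lost, 9 of them with a mean on maltose under 50 normalized counts. The cause of these changes was not tested.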
